A study of Homo sapiens with 6 samples.

Results

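The genes described are 10 neighbours of *ERBB2* on chromosome 17q12 to q21, *MLLT6*, *FBXL20*, *MED1*, *CDK12*, *STARD3*, *PGAP3*, *MIEN1*, *GRB7*, *GSDMB* and *ORMDL3*, chosen by symbol out of 22807 genes in the table. All 10 were found, and all 10 passed the filter of a mean normalized value of at least 1, as did 12862 genes in all. The cell line was MDA-MB-453, a long-established line of HER2+ breast cancer, and its RNA was sequenced in 6 libraries. In 3 libraries the cells had received *DUSP6* siRNA by lipid transfection, and in 3 they had received scrambled siRNA (genotype given as WT). DUSP6 is a phosphatase that removes phosphate from the ERK kinases. Several siRNAs of different sequence were used per group, and the sources used here do not tie them to libraries. The labels do not say whether the libraries come from separate cultures, so p-values measure only the spread between these libraries. It may be technical or come from the different siRNAs, which cannot be told apart. The spread was beyond read sampling, with a chi-square over degrees of freedom between pairs of libraries of 70.4 to 212 for scrambled siRNA. For *DUSP6* siRNA it was 6.88 to 26.8. No library of another HER2+ line and no measure of gene copy number was analysed here.

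*ERBB2* encodes HER2, a receptor tyrosine kinase of the epidermal growth factor receptor family. In HER2+ breast cancer the receptor gene is amplified together with a stretch of 17q12 around it, the HER2 amplicon, so that genes beside it are often present in extra copies and expressed at high levels. STARD3, PGAP3, MIEN1 and GRB7 lie in the part that is most often co-amplified, whereas the outer genes are in some tumours inside and in others outside the amplified stretch. Genes in such a stretch share their copies but keep their own promoters. The comparison asked whether the lower *ERBB2* level after *DUSP6* siRNA was shared by these neighbours.

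The promoter windows of the *ERBB2* and *PGAP3* pair and of 1 neighbour that fell (*MLLT6*) and 1 that rose (*STARD3*) are shown, because *ERBB2* and *PGAP3* start back to back and moved in opposite directions. Each window runs 5′ to 3′ from 250 bases before to 50 bases after the gene start, as given by RefSeq on GRCh38.p14. Capitals mark matches, on either strand, to 7 short motifs. These were the CCAAT box, the TATA box (TATAA), a longer form of the ETS site (GAGGAA) and the AP-2 site (GCCNNNGGC). The others were the Sp1 site (GGGCGG), the E2F site (TTTGGCGC) and the core of the interferon-stimulated response element (GAAANNGAA). Other forms of the ETS site, which share only the core GGAA, were not marked.
ERBB2, chr17:39687844-39688143, plus strand: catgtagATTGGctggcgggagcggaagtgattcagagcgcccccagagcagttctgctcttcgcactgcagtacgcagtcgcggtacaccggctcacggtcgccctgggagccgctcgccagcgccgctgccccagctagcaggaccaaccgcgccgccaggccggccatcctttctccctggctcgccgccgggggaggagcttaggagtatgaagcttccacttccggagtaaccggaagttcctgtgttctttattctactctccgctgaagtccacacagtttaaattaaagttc
PGAP3, chr17:39688008-39688307, minus strand: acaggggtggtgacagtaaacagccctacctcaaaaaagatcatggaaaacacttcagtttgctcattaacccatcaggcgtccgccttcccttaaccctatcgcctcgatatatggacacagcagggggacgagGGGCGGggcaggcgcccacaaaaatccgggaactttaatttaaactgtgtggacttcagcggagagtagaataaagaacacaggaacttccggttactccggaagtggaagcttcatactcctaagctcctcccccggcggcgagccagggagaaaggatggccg
MLLT6, chr17:38705023-38705322, plus strand: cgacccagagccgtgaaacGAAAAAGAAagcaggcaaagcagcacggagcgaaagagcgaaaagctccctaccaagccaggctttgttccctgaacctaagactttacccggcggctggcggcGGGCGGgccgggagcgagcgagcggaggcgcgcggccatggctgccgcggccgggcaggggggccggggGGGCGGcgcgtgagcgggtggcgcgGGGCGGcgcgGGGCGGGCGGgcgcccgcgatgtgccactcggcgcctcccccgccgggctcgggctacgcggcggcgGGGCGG
STARD3, chr17:39636894-39637193, plus strand: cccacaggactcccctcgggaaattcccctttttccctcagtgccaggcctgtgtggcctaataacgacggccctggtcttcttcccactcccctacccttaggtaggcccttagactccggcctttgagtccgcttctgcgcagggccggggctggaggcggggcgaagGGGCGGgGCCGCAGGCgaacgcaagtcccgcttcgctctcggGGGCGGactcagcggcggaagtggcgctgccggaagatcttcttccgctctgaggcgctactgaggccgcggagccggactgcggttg
The start sites of *ERBB2* and *PGAP3* lie 37 bases apart on opposite strands, and 136 bases belong to both windows. This *ERBB2* start is the upstream one in RefSeq. The GENCODE canonical transcript begins 11970 bases further downstream. The window at the canonical start was not searched for motifs, and which start these cells use was not tested. Sequences were at hand for 8 of the 10 neighbours, *GRB7* and *GSDMB* being the others, and genes with several windows counted once. GGGCGG was found in 6 of these 8 genes (*MLLT6*, *FBXL20*, *STARD3*, *PGAP3*, *MIEN1* and *ORMDL3*) and in 45.0% of 35116 windows of the same length over all genes. In the *MLLT6* window, 2 of its 6 matches overlap each other. CCAAT was found in *FBXL20*, *MED1* and *ERBB2* (34.6% of all windows), TATAA in *FBXL20* (20.4%), GAGGAA in *MED1* (27.9%), GCCNNNGGC in *FBXL20* and *STARD3* (23.2%) and GAAANNGAA in *MLLT6* and *CDK12* (8.11%). TTTGGCGC was in none of them and in 0.652% of all windows. *MLLT6*, which fell, and *PGAP3* and *STARD3*, which rose, all held GGGCGG.

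Recovered reads ranged from 45546981 to 85729785 per library, and 1 read was worth a value of 0.0121 to 0.0202. The targeted gene followed its label. *DUSP6* on chromosome 12 had values of 209, 110 and 114 in scrambled siRNA replicates 1 to 3 and of 39.4, 24.5 and 35.2 in *DUSP6* siRNA replicates 1 to 3. Its log2 fold change was -2.05 (SE 0.25, limma adjusted p = 3.09e-04). Of all genes tested, the share called lower after *DUSP6* siRNA (adjusted p under 0.05) was 24.7% and the share called higher was 19.7%. Without the deposited scaling by the trimmed mean of M-values (TMM), 1800 genes were lower and 4777 higher in place of 3179 and 2540, and the fold changes of all genes shifted up by a median of 0.22. *IFIT1*, an interferon-induced antiviral gene, moved with the groups and had a mean of 6.99 ± 4.85 (SD, n = 3) with scrambled siRNA and of 1042 ± 55.2 (SD, n = 3) with *DUSP6* siRNA. Its part in the values that follow was not tested. In bulk RNA, fewer cells of a kind and less RNA per cell cannot be told apart. As a check of the cell line, all 8 luminal markers, such as *KRT8* and *GATA3*, were expressed, down to a mean of 153 for *SPDEF* with *DUSP6* siRNA. Means of the basal keratins *KRT5* and *KRT14*, the estrogen receptor *ESR1* and the leukocyte, endothelial and fibroblast markers *PTPRC*, *PECAM1* and *COL3A1* were under 1, and the progesterone receptor *PGR* (uncertain, with 5.65% of its exons shared) was at 2.04 and 2.10. The fibroblast collagen *COL1A1* rose from 92.2 to 173 and the basal factor *TP63* fell from 10.1 to 1.76, and their part in the results was not tested. Of the luminal markers, which include *ERBB2* itself and *FOXA1*, 7 fell. *KRT8* (-0.42) kept its call only without scrambled siRNA replicate 3, with an adjusted p of up to 0.134 without any other library, and it was not called under quantile normalization (-0.21, adjusted p = 0.299), by edgeR (0.0546), with no trend (0.0515), without a filter (0.102) or without TMM scaling (-0.20, 0.258).

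The fall of *ERBB2* was shared by 3 of its 10 neighbours. *GRB7*, *MLLT6* and *GSDMB* fell, *STARD3* and *PGAP3* rose, and *MIEN1*, *MED1*, *CDK12*, *ORMDL3* and *FBXL20* were not called. These 3 of 10 lower and 2 of 10 higher stand beside 24.7% and 19.7% of all genes tested, so neither share is far from the background. By another reading, 3 neighbours had lower values in every *DUSP6* siRNA library than in any scrambled library and 3 had higher ones, beside 31.1% and 26.7% of all genes. The median log2 fold change of the 10 neighbours was 0.10, beside -0.01 over all genes tested, and their values ran from -0.97 to 0.50. The 3 falls were called with any 1 of the 6 libraries left out and under all 9 other settings tried. The 2 rises were not.

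**Figure D1:**
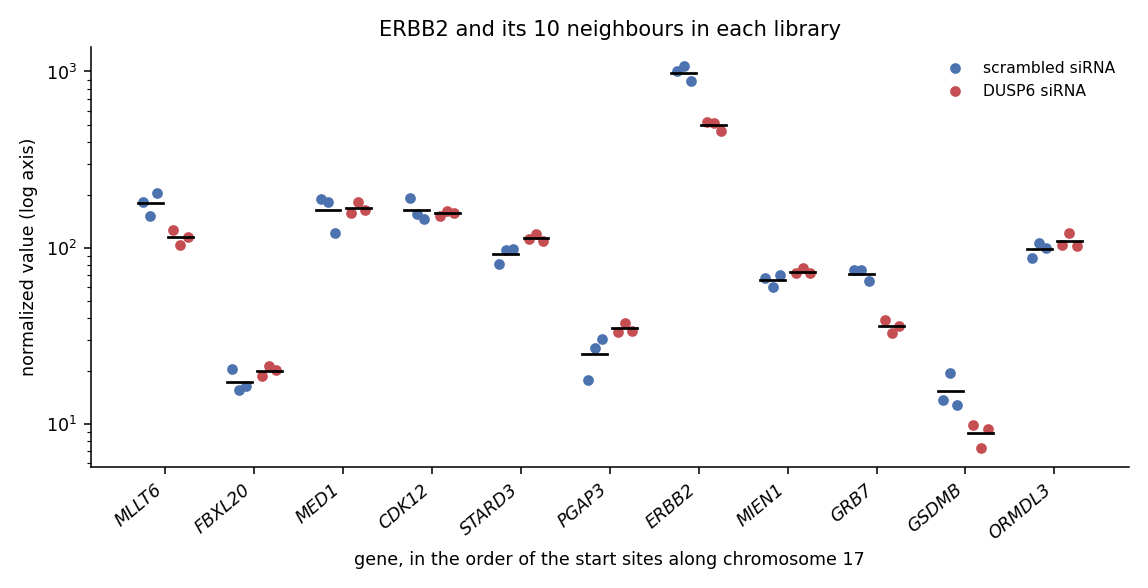
Normalized values (log axis) of *ERBB2* and its 10 neighbours in the order of their start sites along chromosome 17, with blue points for the 3 scrambled siRNA libraries, red points for the 3 *DUSP6* siRNA libraries and a black bar for each mean. *ERBB2* stands highest at means of 984 and 495, and the red points lie below all blue ones for *MLLT6*, *ERBB2*, *GRB7* and *GSDMB*.

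*ERBB2* itself (gene ID 2064, chr17:39688094-39728658, plus strand) had values of 1001, 1068 and 882 in scrambled siRNA replicates 1 to 3 and of 520, 508 and 457 in *DUSP6* siRNA replicates 1 to 3. All *DUSP6* siRNA libraries were far below the lowest scrambled library. The mean fell from 984 ± 94.3 to 495 ± 33.6 (SD, n = 3 each), a ratio of 0.503 and a log2 fold change of -0.99 (SE 0.11, limma adjusted p = 1.59e-04).

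Of the 2 neighbours that act at the membrane close to receptor signalling, one followed *ERBB2* and the other did not. *GRB7* (gene ID 2886, chr17:39737938-39747285, plus strand) encodes an adaptor whose SH2 domain binds phosphorylated HER2 and other receptors. Its values were 74.8, 74.5 and 65.0 with scrambled siRNA and 38.8, 32.9 and 36.1 with *DUSP6* siRNA, so the groups were well apart. The mean fell from 71.4 ± 5.57 to 35.9 ± 2.97 (SD, n = 3 each), again a ratio of 0.503, with a log2 fold change of -0.97 (SE 0.10, limma adjusted p = 1.44e-04). *MIEN1* (gene ID 84299, chr17:39728510-39730532, minus strand), which lies between *ERBB2* and *GRB7* and encodes a small membrane-anchored protein that enhances cell migration, had values of 67.1, 60.2 and 70.4 with scrambled siRNA and of 71.8, 76.5 and 71.6 with *DUSP6* siRNA. The second group lay just above the first, with a gap that was small beside the spread. The log2 fold change of 0.15 (95% confidence interval -0.06 to 0.36) was not called at an adjusted p of 0.204. Exons of *ERBB2* on the other strand cover 10.7% of the exon sequence of *MIEN1* and default counting does not use strand, so this value is uncertain. It was called higher under quantile normalization (0.25, adjusted p = 0.0457) and without TMM scaling (0.38, adjusted p = 0.0129).

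The 3 neighbours with roles in transcription split as well. *MLLT6* (gene ID 4302, chr17:38705273-38729795, plus strand) encodes AF17, a PHD finger protein that is a fusion partner of MLL in leukaemia. It had values of 181, 151 and 204 with scrambled siRNA and of 126, 104 and 115 with *DUSP6* siRNA. The highest *DUSP6* siRNA library stayed under the lowest scrambled one, although the scrambled libraries spread 1.35-fold. Its mean fell from 179 ± 26.2 to 115 ± 10.9 (SD, n = 3 each), a log2 fold change of -0.62 (SE 0.12, adjusted p = 0.00374), or of -0.40 without TMM scaling (adjusted p = 0.0361). *MED1* (gene ID 5469, chr17:39404285-39451263, minus strand) encodes the Mediator subunit that nuclear receptors bind, and had values of 188, 183 and 122 with scrambled siRNA and of 158, 181 and 164 with *DUSP6* siRNA. The groups overlapped, and scrambled siRNA replicate 3 was the lowest of all 6 libraries. *CDK12* (gene ID 51755, chr17:39461486-39567559, plus strand) encodes a kinase of the RNA polymerase II tail that works with cyclin K, and had values of 191, 155 and 145 against 151, 163 and 157, all within the range of the scrambled libraries. The log2 fold changes were 0.05 for *MED1* (95% confidence interval -0.31 to 0.41) and -0.05 for *CDK12* (-0.31 to 0.20). Neither interval reached the log2 fold change of *ERBB2*.

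Lipid and membrane genes among the neighbours stood higher or level. *STARD3* (gene ID 10948, chr17:39637144-39664201, plus strand) encodes a protein that moves cholesterol between the endoplasmic reticulum and late endosomes, and had values of 80.4, 96.7 and 98.9 with scrambled siRNA and of 112, 119 and 109 with *DUSP6* siRNA. *PGAP3* (gene ID 93210, chr17:39671122-39688057, minus strand) encodes an enzyme that remodels the fatty acids of GPI anchors, and had values of 17.7, 26.9 and 30.2 against 33.3, 37.5 and 33.9. In both, every *DUSP6* siRNA library was above every scrambled one, and scrambled siRNA replicate 1 was the lowest. *STARD3* rose by a log2 fold change of 0.30 (SE 0.10, adjusted p = 0.0396) and *PGAP3* by 0.50 (SE 0.18, adjusted p = 0.0436).

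Both calls were close to the threshold. Without scrambled siRNA replicate 1 the fold changes were 0.21 for *STARD3* (adjusted p = 0.0901) and 0.28 for *PGAP3* (adjusted p = 0.0669). Without *DUSP6* siRNA replicates 1, 2 and 3 in turn the adjusted p was 0.101, 0.138 and 0.0877 for *STARD3* and 0.0838, 0.148 and 0.0917 for *PGAP3*, and *PGAP3* also lost its call without scrambled siRNA replicate 2 (adjusted p = 0.0541). Without a filter on low values the adjusted p was 0.056 for *STARD3* and 0.0893 for *PGAP3*. *ORMDL3* (gene ID 94103, chr17:39921041-39927601, minus strand), which encodes a regulator of serine palmitoyltransferase, the entry enzyme of sphingolipid synthesis, had values of 87.9, 107 and 99.5 against 104, 121 and 103. Its groups overlapped, and the log2 fold change of 0.16 (95% confidence interval -0.08 to 0.40) was not called, except without TMM scaling (0.39, adjusted p = 0.0234).

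The remaining neighbours act in protein breakdown and in pyroptosis. *GSDMB* (gene ID 55876, chr17:39904595-39918635, minus strand) encodes gasdermin B, a member of a pore-forming family whose cut forms open membranes in inflammatory cell death. It had values of 13.7, 19.4 and 12.9 with scrambled siRNA and of 9.89, 7.31 and 9.32 with *DUSP6* siRNA, resting on 489 to 1069 reads per library. All *DUSP6* siRNA libraries were under the lowest scrambled one, and scrambled siRNA replicate 2 stood above the other two. The mean fell from 15.3 ± 3.59 to 8.84 ± 1.35 (SD, n = 3 each), a log2 fold change of -0.72 (SE 0.17, adjusted p = 0.0086). *FBXL20* (gene ID 84961, chr17:39252663-39402556, minus strand) encodes an F-box protein, the part of an SCF ubiquitin ligase that picks its targets. Its values of 20.4, 15.5 and 16.4 overlapped those of 18.8, 21.3 and 20.3, and the log2 fold change of 0.20 (95% confidence interval -0.08 to 0.49) was not called. It was called without scrambled siRNA replicate 1 (0.32, adjusted p = 0.0455) and without TMM scaling (0.42, adjusted p = 0.0155).

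**Figure D2:**
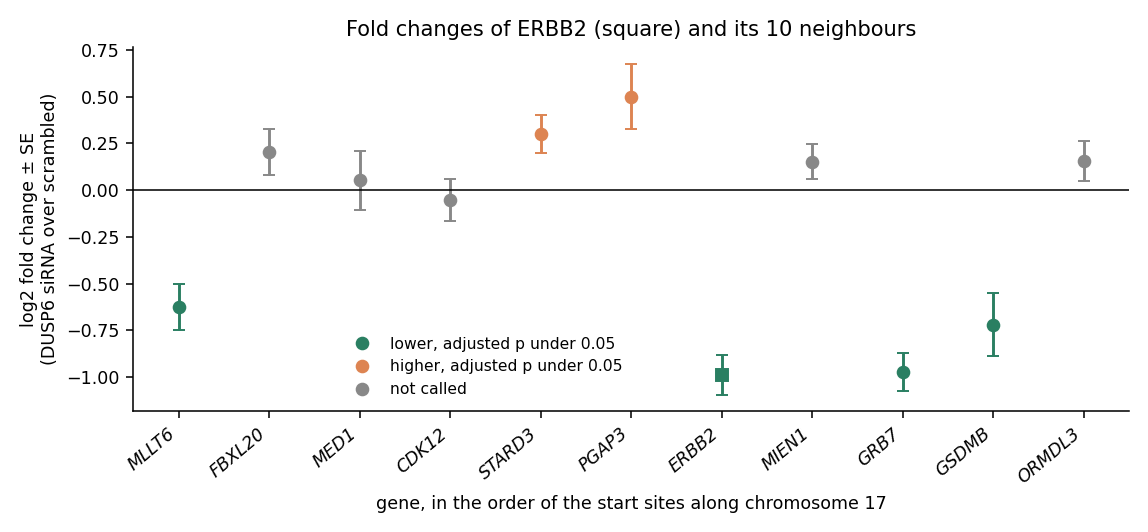
Log2 fold changes (*DUSP6* siRNA over scrambled siRNA, on the log2(value + 1) scale) with standard errors from limma, for *ERBB2* (square) and its 10 neighbours in the order of their start sites. *GRB7* at -0.97 lies level with *ERBB2* at -0.99, while *MIEN1* between them is at 0.15 and *PGAP3* and *STARD3* on the other side are at 0.50 and 0.30.

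Per kilobase of canonical exon sequence, *ERBB2* was the most highly expressed of the 11 genes in both groups, at 216 with scrambled siRNA and 109 with *DUSP6* siRNA, which placed it at percentile 98.3 and 96.2 of the genes tested. With scrambled siRNA the order below it was *MIEN1* (47.2 per kilobase), *ORMDL3* (46.5), *STARD3* (33.2), *GRB7* (32.0), *MLLT6* (22.8), *MED1* (20.2), *CDK12* (19.8), *GSDMB* (9.68), *PGAP3* (9.28) and *FBXL20* (1.69). *MIEN1* and *ORMDL3* overlapped in their libraries, as did *STARD3* and *GRB7*, each adjoining pair among *MLLT6*, *MED1* and *CDK12*, and *GSDMB* and *PGAP3*. With *DUSP6* siRNA, *GRB7* stood at 16.1 per kilobase, after *MED1* and *CDK12*, and no longer overlapped with *STARD3* at 40.9. *PGAP3* at 13.0 was then above *GSDMB* at 5.58 without overlap. *FBXL20* was the lowest of the 11 in both groups, and with scrambled siRNA it stood at percentile 15.8.

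To set *ERBB2* against its neighbours within each library, log2(value + 1) of a neighbour was taken from that of *ERBB2*. Against the mean of all 10, this log2 ratio was 3.94, 3.98 and 3.77 with scrambled siRNA and 3.08, 3.03 and 2.91 with *DUSP6* siRNA. The groups did not overlap, and the difference of -0.89 had an exact two-sided permutation p of 0.1, the smallest that 3 libraries against 3 allow. Against *GRB7* alone the log2 ratio was 3.72, 3.82 and 3.74 with scrambled siRNA and 3.71, 3.91 and 3.63 with *DUSP6* siRNA. These 6 values overlapped, and the difference was -0.02 (exact permutation p = 0.8). The ratio to *MLLT6* differed by -0.36 and the ratio to *GSDMB* by -0.27 (exact permutation p = 0.2 each, adjusted over 10 comparisons 0.222), with overlap in both. Against each of the other 7 neighbours the ratio fell by 0.93 to 1.49 without overlap (exact permutation p = 0.1, adjusted 0.143). By the difference of log2 fold changes over the 6 libraries, *GRB7* was the most like *ERBB2* of the 10 neighbours, followed by *GSDMB* and *MLLT6*.

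**Figure D3:**
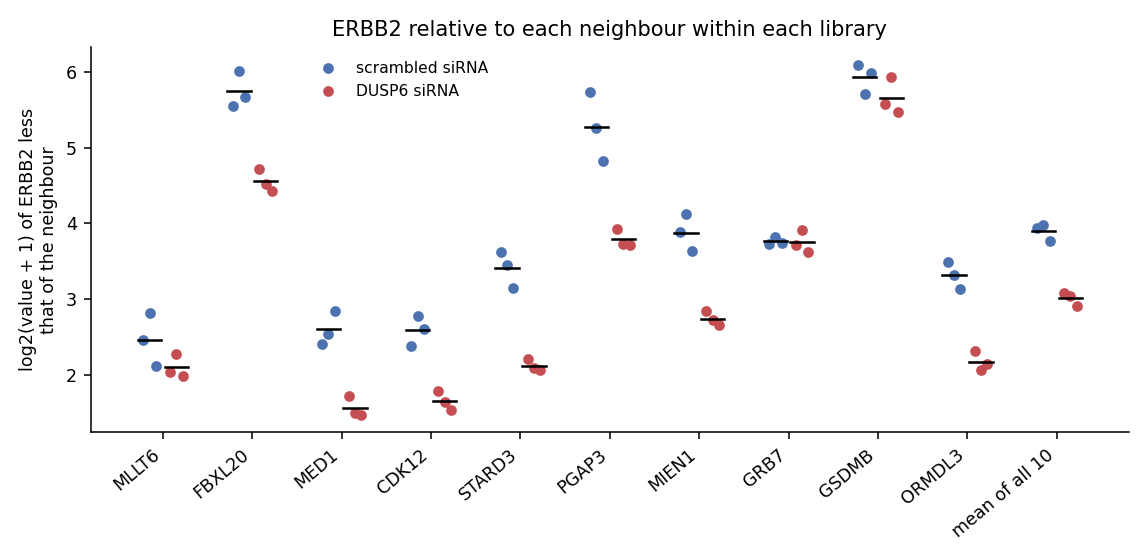
Log2(value + 1) of *ERBB2* less that of each neighbour in the same library, and less the mean of all 10, with blue points for scrambled siRNA, red points for *DUSP6* siRNA and black bars for means. For *GRB7* both groups lie near 3.7, and for *PGAP3* the mean drops from 5.27 to 3.79.

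Adjoining genes could be compared for their arrangement. *PGAP3* and *ERBB2* are read away from each other, from RefSeq starts 37 bases apart. The canonical start of *ERBB2* lies 11970 bases further downstream, and which start these cells use was not tested. Of the 10 neighbours, *PGAP3* had the largest change in ratio to *ERBB2*. The log2 ratio of *ERBB2* to *PGAP3* was 5.74, 5.26 and 4.82 with scrambled siRNA. With *DUSP6* siRNA it was 3.92, 3.72 and 3.71 (difference -1.49, exact permutation p = 0.1). *ERBB2* and *MIEN1* are read toward each other, and their 3′ ends overlap by 149 bases. *MIEN1* and *GRB7* are read apart from starts 7406 bases from each other, and the log2 ratio of *GRB7* to *MIEN1* was 0.15, 0.30 and -0.11 against -0.87, -1.19 and -0.97, a difference of -1.12 with no overlap. *GSDMB* and *ORMDL3* lie in a row on the minus strand, and the log2 ratio of *ORMDL3* to *GSDMB* rose by 0.88, also with no overlap (exact permutation p = 0.1). *MED1* and *CDK12*, read apart from starts 10223 bases from each other, kept overlapping ratios, with a difference of -0.11 (exact permutation p = 0.5). The row of the microRNA hairpin *MIR4728*, 67 bases long and inside an intron of *ERBB2*, held 66, 101 and 43 reads with scrambled siRNA and 21, 22 and 26 reads with *DUSP6* siRNA. It was under the filter and not tested, and its reads cannot be told apart from those of the *ERBB2* intron around it.

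Of the 58 genes besides *ERBB2* with a start site within 1 Mb of its own, 35 passed the filter. Of these, 13 were lower and 3 higher (10 higher without TMM scaling), or 37.1% and 8.57% beside 24.7% and 19.7% of all genes, with a median log2 fold change of -0.05. The neighbours lie in a span of 1222.33 kb from 38705273 to 39927601 on chromosome 17, in which 10 further genes were tested. Called among these were *CISD3*, a mitochondrial iron-sulfur protein (-1.07, adjusted p = 1.03e-04), *LASP1*, an actin-binding protein (-0.65, adjusted p = 0.0113), and *PSMB3*, a proteasome subunit (0.48, adjusted p = 0.0472). *CISD3* is uncertain, since exons of *PCGF2* cover 66.7% of its exon sequence, and so is *PCGF2*, of which *CISD3* covers 64.7%. The groups of *PSMB3* overlapped, and without any 1 library other than scrambled siRNA replicate 3 it was not called (adjusted p = 0.0903 to 0.15). The other 7 were not called: *PCGF2* (0.12), *PIP4K2B* (0.19), *CWC25* (0.23), *RPL23* (-0.22), *CACNB1* (0.12), *RPL19* (-0.08) and *TCAP* (-0.03). *PCGF2* and *CWC25* were called higher without TMM scaling (adjusted p = 0.0119 and 0.00404), and *CWC25* also by quantile normalization and edgeR (adjusted p = 0.0315 and 0.0388).

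The sides of *ERBB2* differed in their counts, which were not tested against each other. Of the 16 tested genes before its start, 3 were lower and 3 higher, with a median of 0.09, and no rise was left without any 1 of the *DUSP6* siRNA libraries. Of the 19 after it, 10 were lower by limma, or 52.6% beside 24.7% of all genes, with a median of -0.29. By edgeR 9 were lower, and none was higher by limma or by edgeR. At an unadjusted limma p under 0.05, 1 gene was higher, *NR1D1*, which is uncertain since *THRA* covers 7.98% of its exons. Leaving out 1 library gave 8 to 11 lower genes on this side, with 1 higher (*NR1D1*, adjusted p = 0.0308) without scrambled siRNA replicate 1. Dropping the TMM scaling gave 7 lower and 4 higher, quantile normalization 9 lower and 2 higher, and no filter 10 lower and 1 higher. The replicate block and the fit with no trend each gave 9 lower, and a mean of at least 10 gave 7 of 13, with none higher. Beyond *ORMDL3* lay 8 of the 10 genes called lower by limma. The largest falls there were in *TNS4*, a focal adhesion protein (5.19 to 0.611, log2 fold change -1.90, adjusted p = 1.67e-04), *IGFBP4*, which binds insulin-like growth factors (13.4 to 4.91, -1.28, adjusted p = 3.91e-04), and *CDC6*, a replication licensing factor (58.2 to 33.6, -0.77, adjusted p = 7.13e-04). At its low level *TNS4* depended on the pseudocount, and edgeR on the reads gave -3.08. From 1 to 5 Mb away, 34 of 114 tested genes were lower and 22 higher, with a median of -0.07, and on all of chromosome 17 the counts were 203 and 136 of 760.

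**Figure D4:**
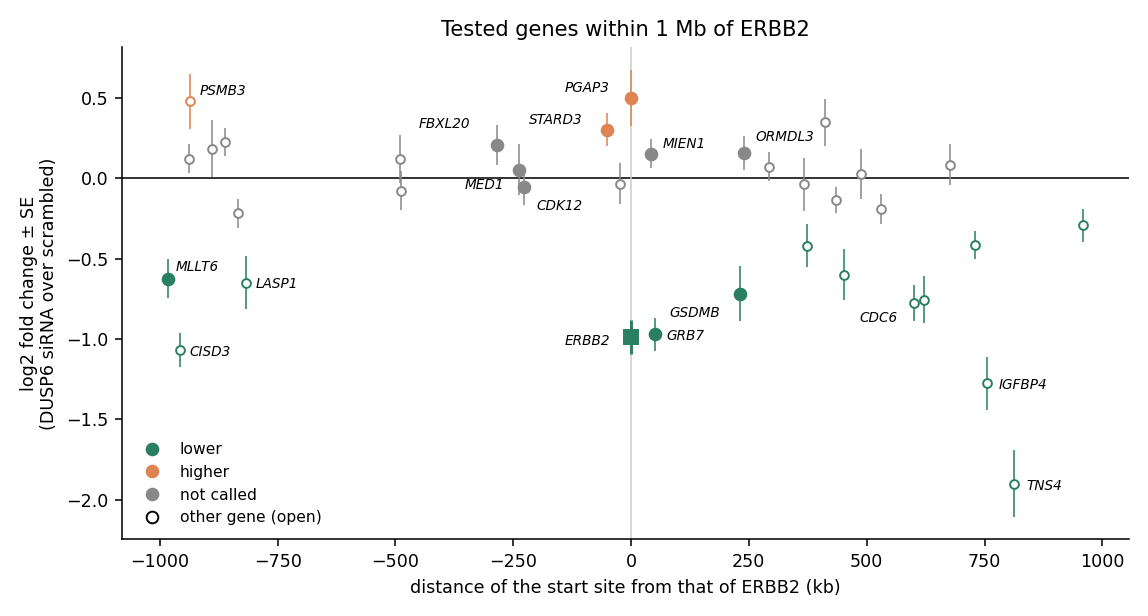
Log2 fold change with its standard error against the distance of the start site from that of *ERBB2*, for *ERBB2* (square) and the 35 tested genes within 1 Mb, with filled points for the 10 neighbours, open points for other genes, green for lower, orange for higher and grey for not called. Right of *ERBB2*, 10 of 19 points are green and none is orange, down to *TNS4* at -1.90.

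Genes that work with the neighbours were taken from 9 lists of partners and relatives, mostly on other chromosomes. Of 69 tested, 13 were lower (18.8%, beside 24.7% of all genes) and 18 higher (26.1%, beside 19.7%), with a median of 0.08. The Mediator list, the partners of *MED1*, had 7 lower and 7 higher of 32, or 21.9% each way, near the shares of all genes. The largest changes in it were those of *MED12* of the kinase module (81.3 to 36.6, -1.13, adjusted p = 7.38e-05), its relative *MED12L* (1.15 to 3.62, 1.13) and *CDK19*, a kinase of the same module (24.3 to 11.4, -0.96). *MED12L* was low, with 113, 39 and 84 reads in scrambled siRNA replicates 1 to 3. Its log2 fold change ran from 0.99 to 1.69 under the other settings in which it was tested. Of the 8 kinases and cyclins of the RNA polymerase II tail beside *CDK12*, *CDK9* (0.60), *CCNT1* (0.42) and *CDK7* (0.28) rose and *CCNK* fell (-0.50). *CCNK*, the cyclin of *CDK12*, is uncertain, since exons of *CCDC85C* cover 84.8% of its exon sequence, and it kept its call only without scrambled siRNA replicate 3, with an adjusted p of 0.0821 to 0.131 without the others. *CCNT1* lost its call without *DUSP6* siRNA replicate 2 (adjusted p = 0.0724), and *CDK7* without scrambled siRNA replicate 1 or any 1 *DUSP6* siRNA library (adjusted p = 0.0607 to 0.154).

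Of the other GRB7 family adaptors, *GRB10* rose and *GRB14* was not called. *GRB10* had values of 16.6, 17.2 and 32.5 with scrambled siRNA and of 90.2, 86.2 and 94.9 with *DUSP6* siRNA (log2 fold change 2.05, SE 0.22, adjusted p = 1.49e-04), and *GRB14* was low in both groups, at means of 1.87 and 1.42 without overlap (-0.25). It was called lower under quantile normalization (-0.38, adjusted p = 0.0198). Beside *MLLT6*, the 5 relatives and partners of AF17 gave a fall of *MLLT1* (-0.55) and a rise of *DOT1L*, the histone H3 methyltransferase they recruit (0.32), and 3 were not called. *MLLT1* lost its call without *DUSP6* siRNA replicate 3 (adjusted p = 0.056), and *DOT1L* kept it only without scrambled siRNA replicate 3 (adjusted p = 0.0511 to 0.109 without the others).

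In the lipid lists, *STARD3NL*, the close relative of *STARD3*, rose (0.43) and *VAPB*, its tether in the endoplasmic reticulum, fell (-0.25), with 4 of 6 not called. *PGAP1* (0.48) and *PGAP2* (0.37), which act in the same GPI anchor maturation as *PGAP3*, rose, and the other 2 tested genes of that list were not called. Of 7 sphingolipid synthesis genes, *SPTLC3* (11.0 to 2.69, -1.67) and *SPTSSA* (-0.63) fell and *SPTLC1* rose (0.36), and *ORMDL1* and *ORMDL2* were not called, the latter uncertain since exons of *DNAJC14* cover 44.3% of its own. In the SCF list *RBX1* (0.83) and *FBXL2* (0.63) rose and *SKP1* fell (-0.42). Of 5 further gasdermins only *GSDMD* passed the filter, at 33.9 and 38.0, and it was not called. *STARD3NL* lost its call without *DUSP6* siRNA replicate 2 (adjusted p = 0.072). *VAPB* lost its call without scrambled siRNA replicate 2 and *SPTLC1* without scrambled siRNA replicate 3, and both lost it without any 1 *DUSP6* siRNA library (adjusted p up to 0.146 and 0.153). The fall of *VAPB* was also not called under quantile normalization (-0.14, adjusted p = 0.2), by edgeR (adjusted p = 0.0578) and without TMM scaling (-0.02, adjusted p = 0.837). *PGAP2* kept its call only without scrambled siRNA replicate 3, and *FBXL2* only without that library or *DUSP6* siRNA replicate 1 (adjusted p up to 0.107 and 0.113).

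Transcription factors known to act on *ERBB2* were lower more often than not. Of 11 tested out of 12, 9 were lower, with a median of -0.60, beside 24.7% of all genes. The list was chosen with earlier results of these data known, so this contrast is descriptive only. The list was not split into factors that raise *ERBB2* and factors that lower it. Whether their falls bear on the level of *ERBB2* was not tested. Such a lean was not particular to this list. Of the 8 luminal markers, which share *FOXA1* with it and include *ERBB2*, 7 were lower. The AP-2 factors *TFAP2A*, *TFAP2B* and *TFAP2C* fell from 317 to 197, from 463 to 318 and from 54.4 to 35.5 (log2 fold changes -0.67, -0.54 and -0.60). *ELF3*, an epithelial ETS factor, had values of 71.8, 95.1 and 72.1 against 23.3, 13.8 and 20.1 (-2.03, adjusted p = 7.02e-05). *FOXA1*, a luminal pioneer factor that was also among the luminal markers, fell from 531 to 302 (-0.79), *GATA4* from 9.48 to 5.44 (-0.70), *YBX1* from 477 to 319 (-0.57), *ETV4* from 5.89 to 1.60 (-1.18) and *PAX2* from 2.73 to 1.54 (-0.52). *ETV4* lost its call without any 1 *DUSP6* siRNA library (adjusted p up to 0.128), and *PAX2* without any library but scrambled siRNA replicate 3 (up to 0.127). In *ETV4*, scrambled siRNA replicate 1 stood at 11.6 beside 2.45 and 3.64, and the log2 fold change was -0.63 without it and -1.85 by edgeR. *TFAP2B* and *YBX1* were not called under quantile normalization (adjusted p = 0.0664 and 0.0596), nor was *YBX1* without TMM scaling (adjusted p = 0.0725).

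**Figure D5:**
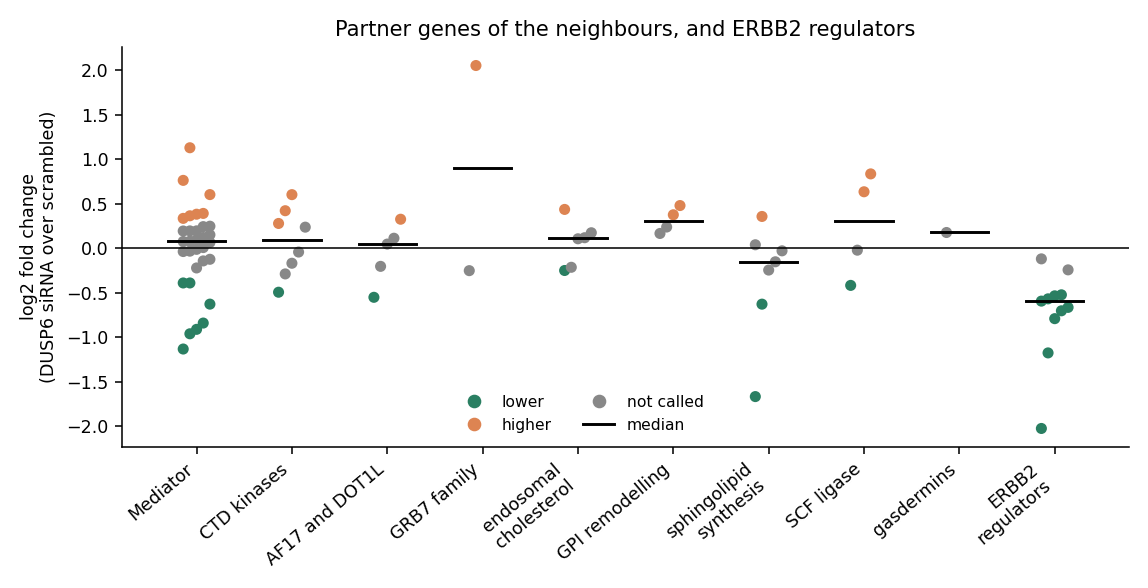
Log2 fold changes of the tested genes in 9 lists of partners and relatives of the neighbours and in the list of *ERBB2* regulators, with green points for lower, orange for higher and grey for not called, and a black bar for the median of each list. The Mediator list is centred at 0.08, the *ERBB2* regulators at -0.60, and *GRB10* stands highest at 2.05.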

How the data were processed

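Stranded mRNA libraries of MDA-MB-453 cells were sequenced. Rsubread served the authors for alignment to hg38 and for assigning reads to RefSeq genes, with its defaults. The deposited table gives a normalized signal, not on a log scale, for each gene in each library. The normalization is not named in the paper, and the submitters' processing notes name edgeR. Division by 1 step per library turned 100% of values into whole reads (tolerance 0.01), and these steps matched edgeR's TMM scaling to within 3e-15. With at least 25717 reads for *ERBB2* and 489 for each neighbour per library, precision was limited by the spread between libraries.

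On the scale log2(value + 1), which understates changes of low genes, the 12862 of 22807 genes with a mean of at least 1 entered limma 3.58.1 (R 4.3.3, trended eBayes). P-values were adjusted over all of them by Benjamini-Hochberg, with calls at an adjusted p under 0.05. Ratios of *ERBB2* to its neighbours were compared by exact two-sided permutation over libraries. Positions were from RefSeq on GRCh38.p14 (22359 gene IDs) and exons from GENCODE 44 canonical transcripts (21211 gene IDs), and a gene was called uncertain where another gene covered over 5% of its exons. The fits were tested on simulated data. Replicate numbers did not pair the libraries.

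The members and lists were chosen with earlier results of these data known. Named were all members, tested genes between *MLLT6* and *ORMDL3*, the 3 largest called falls and rises elsewhere within 1 Mb (no rise was called), up to 3 called genes with the largest change per partner list, and all called regulators of *ERBB2*. *IFIT1*, *CDK7*, *NR1D1*, *DNAJC14*, *CCDC85C*, *THRA*, *GRB14*, *GSDMD*, *ORMDL1*, *ORMDL2*, *MIR4728* and the markers are named beyond this rule. As alternatives, the filter was dropped or raised to a mean of 10, the pseudocount was set to 0.1, scaling was by the median of ratios or by quantiles, the fit had a replicate block or no trend, edgeR 4.0.16 was run on the recovered reads, and each library was left out. Scaling by total reads with no TMM factor was added after seeing the data. Protein sequences and copy number were not used here. Also, 1 gene of the lists of regulators and luminal markers is not reported here and was left out of their counts and medians.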

Additional observations from a re-analysis of the deposited data

How the results depend on the processing

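The fold changes of *ERBB2* and the counts of 3 lower neighbours and 9 lower *ERBB2* regulators stayed on their side of the threshold, or within 1.5 times, under all settings run. The lowest count of regulators was 6, at a mean of at least 10. *ERBB2* ranged from -1.06 to -0.93 with 1 library left out and from -0.99 to -0.76 under the other settings, and its change relative to the mean of the neighbours from -0.95 to -0.84 and from -0.89 to -0.78. The count of higher neighbours (2) was 0 without a filter on low values, 1 with eBayes without a trend, 5 without TMM factors, 3 under quantile normalization and 0 to 2 with 1 library left out. The count of higher genes within 1 Mb (3) was 1 in the first and the second of these settings, 10 without TMM factors, 6 under quantile normalization and 0 to 3 with 1 library left out. For the partner genes, 7 were lower and 29 higher without TMM factors, and leaving out 1 library gave 8 to 17 lower and 7 to 18 higher. Over all genes, 1800 were lower and 4777 higher without TMM factors, 1639 were higher at a mean of at least 10, and 1574 to 3183 were higher with 1 library left out. Under quantile normalization 2887 were lower and 2958 higher. Among named genes outside the neighbours, *PSMB3*, *CCNK*, *PGAP2*, *SPTLC1*, *FBXL2*, *ETV4* and *PAX2* were not called without a filter, and *CCNK*, *MLLT1*, *SKP1* and *PAX2* were not called without TMM factors. *CCNK* and *FBXL2* were not called under quantile normalization. The cause of these changes was not tested.

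With the replicate number as a block, 3096 genes were lower and 2495 higher, the neighbours kept 3 lower and 2 higher, and *ERBB2* had a log2 fold change of -0.99. The deviations of same-numbered libraries correlated at 0.005, 0.087 and -0.076, not every library correlated best with its own number, and the numbers were not taken to pair the libraries. Of the other named genes, *CDK7* and *VAPB* were not called with the block (adjusted p = 0.0783 and 0.0756). The exact sign-flip test of *ERBB2* relative to the neighbours within numbers gave p = 0.25, the smallest that 3 pairs allow. With 3 libraries a group, changes such as those of *STARD3* and *PGAP3* lie near the threshold, and values that were not called are not shown to be equal.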
